A study of Drosophila melanogaster with 4 samples.

Results

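The genes examined here encode Mediator and the general transcription machinery of RNA polymerase II (Pol II) in Drosophila melanogaster. They were chosen by name alone: every protein-coding gene of the Ensembl annotation whose symbol starts with MED or Taf and a digit, with TfII, or with Polr2. The rule returned 62 of 13968 protein-coding genes on the main chromosome arms, made up of 25 Mediator genes, 15 Taf genes (TFIID and its variants), 9 genes for TFIIA, TFIIB, TFIIE, TFIIF and TFIIS, and 13 Pol II genes. The rule uses no measured value, although it was written with earlier results of these data known.

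The data come from chromatin immunoprecipitation followed by sequencing (ChIP-seq) in whole embryos of 0 to 24 h, in 1 group of 4 biological replicates. All 4 come from transgenic flies that express Gug fused to eGFP, and an antibody against GFP precipitated the fusion protein. What drives the transgene is not given in the sources used here. Whole embryos mix every tissue and stage of that window, no control sample is used here, and the measurements are lists of peaks on the dm6 build, so the depth of the libraries is unknown.

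Pol II starts transcription on a platform of general factors. TFIID binds the core promoter through the TATA-binding protein and its associated factors (TAFs), TFIIA and TFIIB follow, TFIIF brings the polymerase, TFIIE and TFIIH complete the assembly, and TFIIS helps a stalled polymerase to resume. Mediator is a large complex with a head, a middle and a tail that links factors bound at enhancers to this assembly. Gug, the fly Atrophin, is recruited to chromatin by nuclear receptors, as a co-repressor that brings histone deacetylases.

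A gene was counted as called when the summit of a thresholded peak lay within 1 kb of any of its transcription start sites (TSSs) in at least 2 of the 4 replicates' lists. Of the 62 machinery genes 18 were called, which is 29.0%, against 16.0% of all protein-coding genes. A further 6 had a peak in 1 list, and 38 had none. At least 1 list held 24 machinery genes (38.7%, against 24.1% of all genes), at least 3 lists held 15 (24.2%, against 11.6%), and all 4 lists held 9 (14.5%, against 7.88%). The shares are given as a description without a test.

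The lists differ in length, with 1948, 3786, 2117 and 2450 peaks on the main arms for replicates 1 to 4, and the longest, that of replicate 2, gave the highest shares. Of the machinery genes, 21.0%, 38.7%, 24.2% and 22.6% had a peak in the lists of replicates 1 to 4 (mean 26.6% ± 8.17 SD, n = 4). Of all genes, 10.3%, 22.5%, 13.8% and 13.0% did in the same lists (14.9% ± 5.30 SD, n = 4). The machinery share was higher in each of the 4 lists. All 6 genes found in 1 list were found in that of replicate 2, the longest, and that list held a peak at each of the 18 called genes as well. With every list shortened to the length of the shortest by signal, 17 of the 62 were called (27.4%, against 13.4% of all genes).

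By complex, 9 of the 25 Mediator genes were called (36.0%), 2 of the 15 Taf genes (13.3%), 3 of the 9 TFIIA to TFIIS genes (33.3%) and 4 of the 13 Pol II genes (30.8%), beside the 16.0% of all genes. The Taf count stands near the share of all genes, and the counts rest on few genes in each complex. Of the Taf genes, 5 had a peak in at least 1 list and none had one in all 4. Leaving out replicate 2 took the TFIIA to TFIIS count to 1 of 9.

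**Figure D1:**
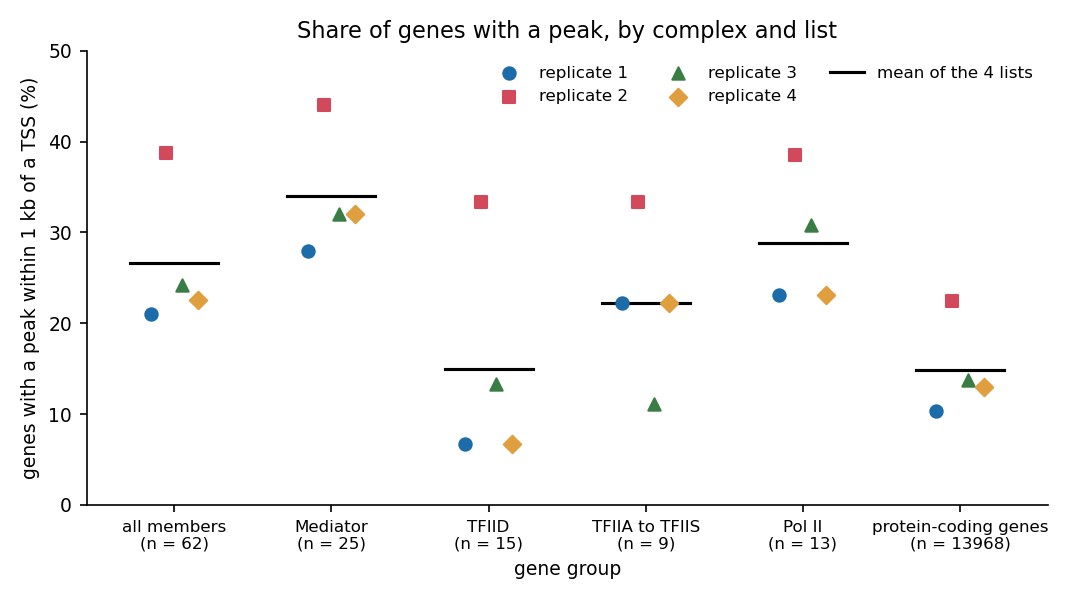
Percentage of genes with a thresholded peak summit within 1 kb of a TSS (vertical axis) for all 62 machinery genes, for each complex and for all 13968 protein-coding genes (horizontal axis). Each symbol is the list of 1 replicate and each line the mean of the 4 lists. All machinery genes averaged 26.6% and all protein-coding genes 14.9%, and replicate 2 gave the highest share in every group.

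Signal is the authors' own value for each peak. It is given here as a percentile within the list of its replicate, so 90 means stronger than 90% of that list. Distances run from the gene's own TSS nearest to the summit, negative upstream, and belong to the strongest peak in the window. The DNA under the summits of the 4 genes with the highest mean percentile among those in all 4 lists is printed so that the sequence can be set beside the values. It is followed by the bases before the TSS of MED1, a Mediator gene with no thresholded peak. The first 4 windows hold 100 bases either side of the median summit, that of MED1 ends at its TSS, and all are on dm6, 5′ to 3′, on the strand of the gene. The windows are chr3L:21728725-21728925 (plus strand) for Polr2H, chr3R:5654914-5655114 (plus) for MED27, chr3L:654220-654420 (minus) for MED30, chr2L:472346-472546 (plus) for MED15 and chr3L:21634446-21634646 (minus) for MED1. Capitals mark matches, on either strand, to the E-box CAGCTG, the GAGA-factor element GAGAG or the core promoter box TATAAA.
Polr2H: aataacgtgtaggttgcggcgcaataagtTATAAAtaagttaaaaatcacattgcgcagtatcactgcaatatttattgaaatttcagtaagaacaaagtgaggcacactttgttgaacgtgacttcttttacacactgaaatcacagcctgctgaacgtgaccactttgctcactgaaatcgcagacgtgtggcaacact
MED27: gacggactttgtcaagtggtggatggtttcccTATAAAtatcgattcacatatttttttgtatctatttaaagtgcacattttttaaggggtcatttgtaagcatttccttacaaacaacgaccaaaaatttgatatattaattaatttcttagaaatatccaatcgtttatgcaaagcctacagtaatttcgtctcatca
MED30: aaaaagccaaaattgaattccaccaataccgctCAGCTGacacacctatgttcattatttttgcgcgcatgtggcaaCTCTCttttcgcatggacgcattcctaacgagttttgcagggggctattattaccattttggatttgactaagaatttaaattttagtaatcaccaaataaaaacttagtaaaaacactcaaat
MED15: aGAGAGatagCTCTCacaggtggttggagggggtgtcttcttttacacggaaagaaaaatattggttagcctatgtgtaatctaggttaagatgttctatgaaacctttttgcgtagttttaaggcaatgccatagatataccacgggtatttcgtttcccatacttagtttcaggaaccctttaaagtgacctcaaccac
MED1: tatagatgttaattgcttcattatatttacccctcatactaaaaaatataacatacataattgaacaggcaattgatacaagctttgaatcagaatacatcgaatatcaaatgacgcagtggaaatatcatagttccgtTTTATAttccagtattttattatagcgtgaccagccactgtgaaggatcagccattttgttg

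Of the 3 other motifs searched in these windows, TATCGATA (the DNA replication-related element, DRE), GGTCACACT (the core of the M1BP motif) and CATCNCTA, none matched in these 5. The shorter CGATA and TCAGT, counted in promoters further below, are not marked here. TATAAA occurs in the windows of Polr2H and MED27 and, read on the other strand, of MED1. It is a common run of letters: 33.3% of 1634 windows of 201 bases around promoter summits found in at least 2 lists held it, as did 37.0% of windows of that length before the TSSs of all protein-coding genes. The corresponding shares were 13.3% and 11.6% for CAGCTG, and 24.3% and 22.1% for GAGAG. A match describes the letters and does not show that a factor binds.

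Among Mediator genes, MED27, MED30 and MED15 carried the strongest peaks, each in all 4 lists. MED27, which human structures place where head and tail meet, stood at percentiles of 85.4, 95.6, 91.1 and 83.9 in replicates 1 to 4 (mean 89.0 ± 5.41 SD). Its summits lay 180, 140, 110 and 84 bp upstream, and elm starts on the opposite strand 153 bp from the median summit. MED30, a subunit with no budding yeast counterpart, had percentiles of 79.7, 94.3, 93.9 and 88.2 (mean 89.0 ± 6.79 SD). Its 4 summits fell within 14 bp of each other, 222 to 236 bp upstream, in the gap to Rev1, a DNA polymerase gene whose own TSS is 43 bp from the summit. MED15, which encodes the tail subunit that activators contact in yeast, had percentiles of 64.4, 88.9, 85.6 and 85.2 (mean 81.0 ± 11.2 SD), with replicate 1 low. Its summits lay 541 to 569 bp upstream, farther out than at any other called machinery gene, and 246 bp from the TSS of CG4297.

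The other Mediator genes found in all 4 lists varied more between replicates. MED7, a middle subunit in yeast, stood at percentiles of 12.2, 76.3, 76.4 and 60.5 in replicates 1 to 4 (mean 56.4 ± 30.4 SD), although its summits lay within 10 bp of each other, 26 to 36 bp upstream. MED17, a scaffold of the yeast head, had percentiles of 33.6, 79.5, 30.0 and 66.4, with summits 35, 46, 47 and 152 bp upstream. MED16, a tail subunit, had the lowest mean percentile of the 6 (34.2 ± 19.0 SD), with percentiles of 28.8, 54.7, 42.9 and 10.5 and summits 32 to 75 bp upstream. So the position of the peak was kept within 10 bp at MED7 and 43 bp at MED16 while its percentile in the thresholded list was not. These lists differ in length, so percentiles are not on the same footing between them. In the longer ranked lists described below, the percentiles in replicates 1 to 4 were 96.2, 97.5, 98.7 and 97.0 at MED7. At MED16 they were 97.1, 95.3, 97.0 and 92.5. MED7 faces Cap-H2, a condensin II subunit gene, at 249 bp from the summit, and MED17 and MED16 face CG12321 and CG11170.

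MED4 and MED31, both middle subunits in yeast, had peaks in replicates 2, 3 and 4 and none in replicate 1. The percentiles were 52.2, 36.3 and 27.3 at MED4, with summits 156, 161 and 159 bp upstream, and 23.3, 42.4 and 29.9 at MED31, with summits 144, 147 and 177 bp upstream. The MED31 summit lies in the 5′ UTR of CG9775, 22 bp from the TSS of that gene, and slx1 also starts within 1 kb. MED6, a head subunit, was found in replicates 1 and 2, at percentiles of 11.6 and 34.5 and 2 and 12 bp upstream of 1 of its 5 TSSs, with Naa80 starting 12 bp from the summit on the other strand. MED19 (percentile 54.6) and MED8 (percentile 32.8) were found in replicate 2 only. The strongest peak lay 555 bp upstream at MED19 and 449 bp upstream at MED8, where another summit of that list was 45 bp from the TSS. These genes stand in the lower and middle part of the lists, below MED27 and MED30 in every list that holds both.

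The 14 Mediator genes in no list are MED1, MED9, MED10, MED11, MED14, MED18, MED20, MED21, MED22, MED23, MED24, MED25, MED26 and MED28. Genes with and without a peak come from the same part of the complex: of the yeast head subunits, MED6 and MED17 were called, MED8 was in 1 list, and MED11, MED18, MED20 and MED22 were in none. Of the middle, MED4, MED7 and MED31 were called, MED19 was in 1 list, and MED1, MED9, MED10 and MED21 were in none.

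Among the Taf genes, Taf4 and Taf5 were called and neither was found in all 4 lists. Taf4 pairs with Taf12 through histone folds within TFIID. It stood at percentiles of 45.7, 67.1 and 69.3 in replicates 1, 2 and 3, with no peak in replicate 4. Its summits lay in an intron of the gene, 77, 80 and 112 bp upstream of 1 of its 3 TSSs. Taf5, a WD40 scaffold protein of TFIID, had percentiles of 36.6, 40.3 and 67.8 in replicates 2, 3 and 4 and none in replicate 1. The summit was 58 bp upstream in replicate 2 and 210 and 195 bp upstream in replicates 3 and 4, the widest spread (152 bp) among the called genes, and Pex6, a peroxisome biogenesis gene, starts 106 bp from the median summit. Taf8 (percentile 71.8), Taf7 (53.2) and Taf2 (52.0) had a peak in replicate 2 only. No list held a peak at Taf1, Taf3, Taf6, Taf9, Taf10, Taf10b, Taf11, Taf12, Taf12L or Taf13. Taf1 encodes a large scaffold subunit of TFIID, and its nearest thresholded summit in any list was 18262 bp from its TSS.

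Among the general factors, TfIIA-L, TfIIA-S and TfIIB were called. TfIIA-L, the precursor of the large TFIIA subunits, was in all 4 lists at percentiles of 49.4, 86.3, 66.6 and 82.0 in replicates 1 to 4 (mean 71.1 ± 16.7 SD). Its summits sat within 30 bp of each other inside an intron, 190 to 220 bp upstream of the internal TSS of the gene. The nearest TSS, 36 bp away on the opposite strand, was that of pll, the kinase of the Toll pathway, and with the 5′-most TSS of each gene in place of all TSSs TfIIA-L was not called. TfIIA-S, the small TFIIA subunit, had percentiles of 53.9 and 45.1 in replicates 2 and 4, 45 and 78 bp upstream, with no other TSS within 1 kb. TfIIB, the factor that joins promoter and polymerase, had percentiles of 23.1 and 74.6 in replicates 1 and 2, 382 and 347 bp upstream and 55 bp from the TSS of Bug22. No list held a peak within 1 kb of TfIIA-S-2, TfIIEalpha, TfIIEbeta, TfIIFalpha, TfIIFbeta or TfIIS. At TfIIEalpha all 4 lists held a summit just outside the window, between 1528 and 1539 bp from its TSS.

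Polr2H had a mean percentile within 1 SD of those of MED27 and MED30, and these 3 led the 62 genes. This small subunit is shared by the nuclear RNA polymerases, and it stood at percentiles of 88.3, 96.6, 84.9 and 87.1 in replicates 1 to 4 (mean 89.2 ± 5.09 SD). Its summits lay 96, 122, 80 and 118 bp upstream in a gap of 126 bp to the TSS of CG11247, which was the nearer of the pair in every list. Polr2B, the large subunit that forms the catalytic cleft with Polr2A, had percentiles of 49.6, 91.3, 64.2 and 86.2 (mean 72.9 ± 19.4 SD), 5 to 28 bp upstream. Polr2J, an assembly partner of Polr2C, had percentiles of 80.5, 72.6 and 70.7 in replicates 2, 3 and 4, 189 to 225 bp upstream, with CG15141 starting 41 bp from the summit. Polr2F, another shared subunit, ranged from 6.06 in replicate 1 through 84.6 in replicate 2 to 61.3 in replicate 3, with summits 37 to 54 bp upstream and no other TSS within 1 kb. Polr2C had a peak in replicate 2 only, at percentile 6.02. Polr2A, the largest subunit, had none in any list, nor did Polr2D, Polr2E, Polr2G, Polr2I, Polr2K, Polr2L or Polr2M.

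**Figure D2:**
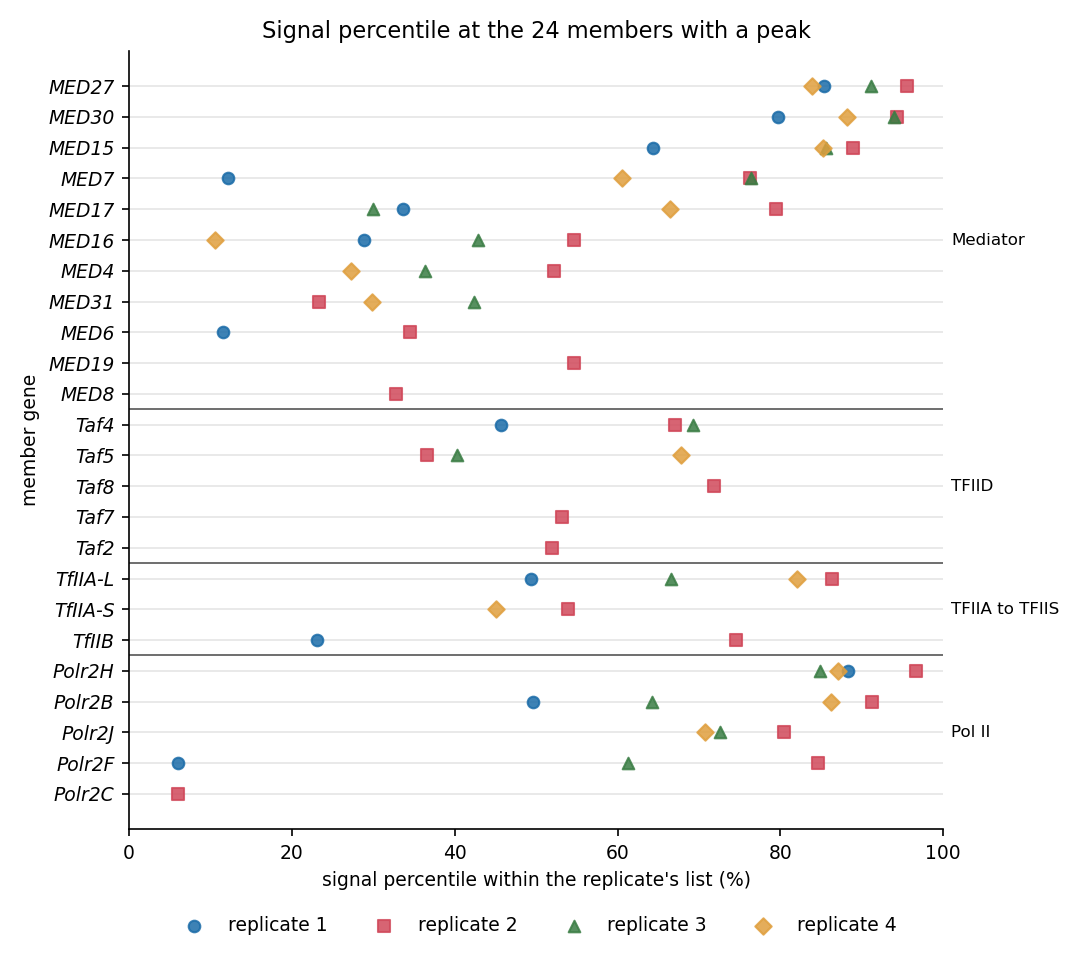
Signal percentile within the list of each replicate (horizontal axis, %) for the 24 machinery genes with a thresholded peak within 1 kb of a TSS in at least 1 list (rows, grouped by complex and ordered by number of lists and mean percentile). Symbols stand for replicates 1 to 4, and a missing symbol means no peak in that list. MED27, MED30 and Polr2H stand above 79 in every list, while MED7 spans 12.2 to 76.4 and Polr2F 6.06 to 84.6.

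Over the machinery genes with a peak, the median percentile was 45.7, 69.5, 66.6 and 69.3 in replicates 1 to 4 (mean 62.8 ± 11.5 SD, n = 4). Over all genes with a peak it was 56.4, 60.7, 57.6 and 58.8 (58.4 ± 1.83 SD, n = 4). The machinery median was lower than that of all genes in replicate 1 and higher in the other 3, so no direction was shared by the 4 lists. Of the 9 machinery genes in all 4 lists, 8 had their highest percentile in replicate 2, whose list is the longest. The same count was not made over all genes in all 4 lists, so it is not read as a trait of these genes.

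Position was more regular than signal. With the strongest peak in the window taken for each gene and list, the 18 called genes had 60, which leaves out another peak at MED7 in replicate 2. All 60 had their summit upstream of the gene's nearest TSS, and 54 of the 60 lay within 250 bp of it. At MED6, Taf4 and TfIIA-L that TSS is internal, and the summits lay inside the gene, downstream of its start. In each list 100% of the machinery genes with a peak had the strongest one upstream, against 86.2% ± 0.665 of all genes with a peak (SD, n = 4 lists). The median distance to the TSS was 77.0, 101, 112 and 156 bp for the machinery genes in replicates 1 to 4 (mean 112 ± 33.1 SD) and 186, 147, 168 and 178 bp for all genes (170 ± 16.9 SD). It was shorter for the machinery genes in each list. The lists share most of these genes, so the 4 values are not independent looks at different promoters. At the called genes the summits of different replicates lay a median of 33.0 bp apart at most, from 5 bp at MED4 to 152 bp at Taf5. By annotation 14 of the 18 median summits were intergenic, 2 were in a 5′ UTR (those of MED31 and MED6) and 2 in an intron (Taf4 and TfIIA-L).

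**Figure D3:**
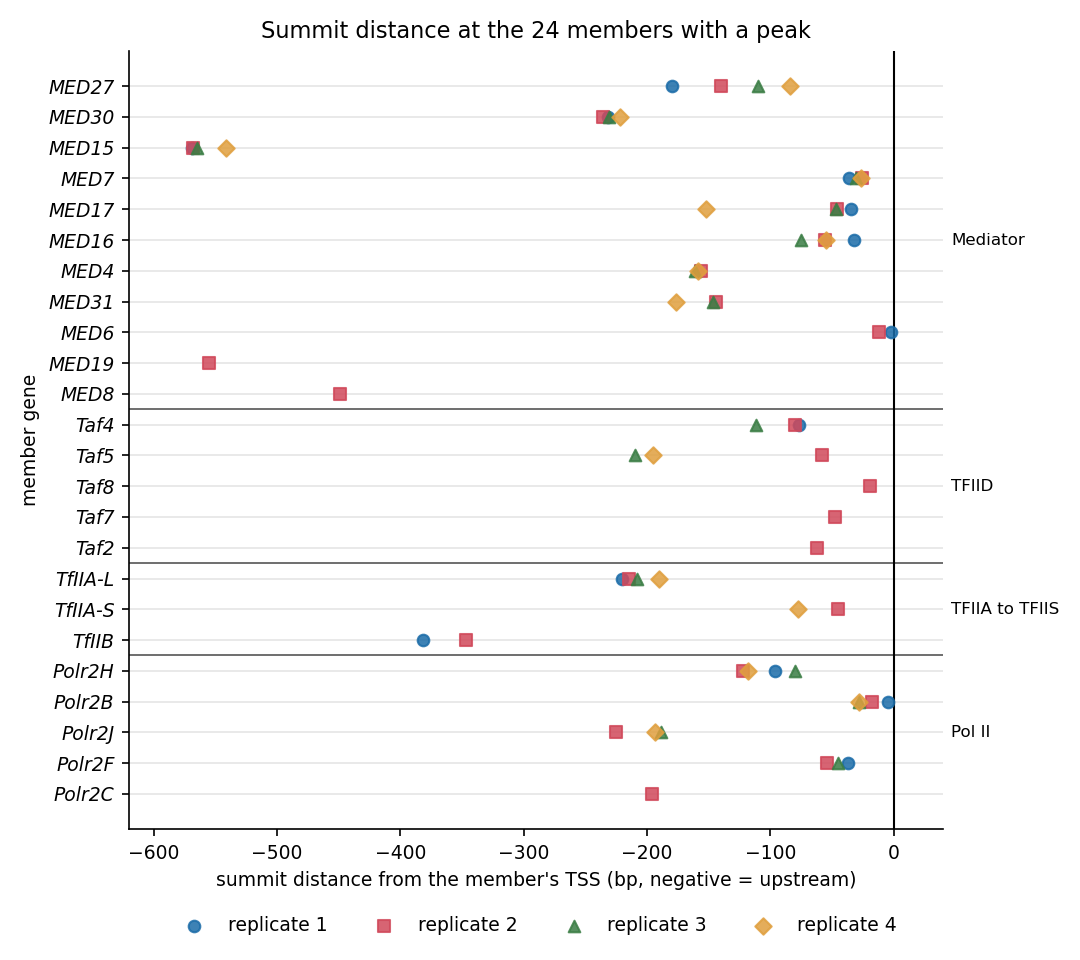
Distance of the peak summit from the TSS of the machinery gene (horizontal axis, bp, negative upstream, TSS at 0) for the same 24 genes (rows, grouped by complex), with 1 symbol per replicate. Each summit shown is that of the strongest peak in the window, and all lie upstream of the gene's nearest TSS, which at MED6, Taf4, Taf7 and TfIIA-L is internal. MED15 stands farthest out among the called genes, at 541 to 569 bp, and in replicate 4 the MED17 summit, 152 bp upstream, lies apart from the other 3.

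Most of these promoters are shared with a neighbour. At 14 of the 18 called genes another gene started within 1 kb of the median summit, and at all 14 the nearest such gene lay on the opposite strand. The 4 without such a neighbour are MED4, Taf4, TfIIA-S and Polr2F. The gene's own TSS was the nearest of all in every list with a peak at 8 of the 18. A peak between 2 divergent TSSs therefore cannot be given to 1 of the genes by position, and the lists measure the shared promoter. The counts of 14 and 8 were not made over all called genes.

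Head-to-head here means that a TSS of another protein-coding gene lies on the opposite strand within 1 kb upstream of the 5′-most TSS of the gene. By this measure 42 of the 62 machinery genes were head-to-head (67.7%), against 35.2% of all protein-coding genes. Of the 18 called machinery genes 77.8% were, against 62.7% of the 2232 protein-coding genes called in at least 2 lists, so the arrangement is common among called genes in general. Among head-to-head genes, 14 of the 42 machinery genes were called (33.3%), against 28.5% of all such genes. These 14 are not the same as the 14 with a neighbour near the summit: Taf4 counts only here and MED6 only there. TfIIA-L counts here through a neighbour of its 5′-most TSS and not through pll. Among genes that are not head-to-head, 4 of 20 machinery genes were called (20.0%), against 9.20%. The gap between the machinery genes and all genes was thus narrower among head-to-head genes than over the whole set. Among genes that are not head-to-head the machinery share still stood above that of all genes, on only 4 called genes. The part of arrangement in the difference was not tested. Giving each peak only to the gene with the nearest TSS left 9 of the 62 (14.5%), against 11.3% of all genes. Lost under that assignment were MED6, MED15, MED30, MED31, Taf5, TfIIA-L, TfIIB, Polr2H and Polr2J, so the peaks of Polr2H and MED30, among the strongest here, went to a neighbour.

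**Figure D4:**
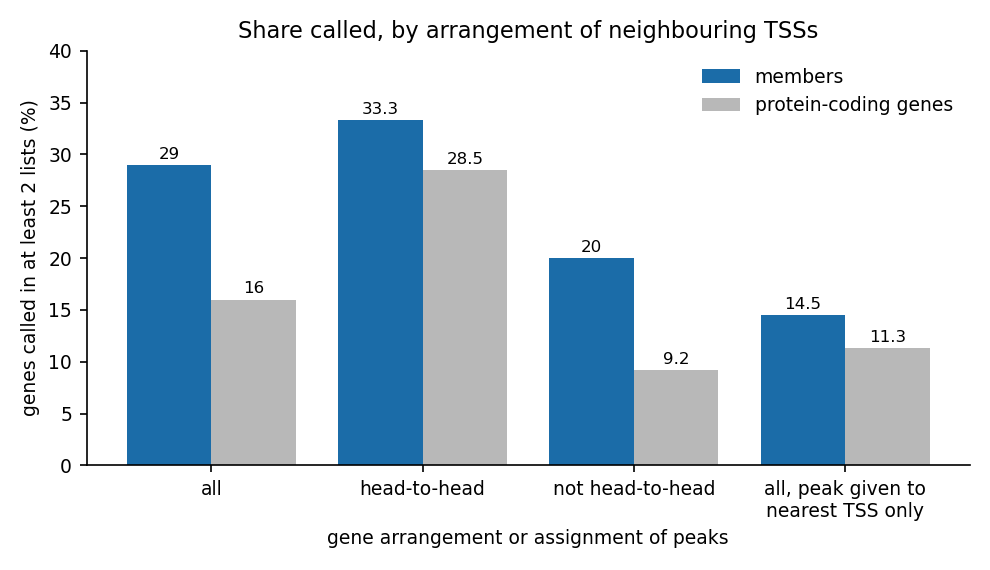
Percentage of genes called in at least 2 lists (vertical axis) among machinery genes and among all protein-coding genes, over all genes, head-to-head genes, genes not head-to-head, and all genes with each peak given to the nearest TSS only (horizontal axis). Bars are shares of genes with no error. The shares of the machinery genes are 29.0%, 33.3%, 20.0% and 14.5%, beside 16.0%, 28.5%, 9.20% and 11.3% of all genes.

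The number of TSSs also enters, since a gene with more of them has more windows. The machinery genes have few: 56 of the 62 have 1 TSS (90.3%), against 73.5% of all genes. Of those 56, 15 were called (26.8%), against 12.0% of all genes with 1 TSS. By chromosome arm, 9 of 21 machinery genes were called on 3R (against 17.3% of all genes on that arm), 4 of 15 on 3L (17.0%), 3 of 11 on 2L (14.6%), 2 of 7 on 2R (15.4%), 0 of 6 on X (15.5%) and 0 of 2 on 4 (8.75%). With so few genes per arm no difference between arms is read from these counts.

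Peak sets outside the rule held largely the same genes. The authors' conservative series-level set held a summit within 1 kb of 20 of the 62 (32.3%, against 19.7% of all genes) and the largest series-level set of 23 (37.1%, against 22.9%). All 18 called genes were in the largest set and 16 in the conservative one, which lacked Taf5 and TfIIA-S. None of the 38 genes without a thresholded peak was in either set, and of all genes in no thresholded list 2.46% were in the largest one, a share too low for 38 genes to differ from it visibly. These sets were made from the same 4 replicates and are not independent of the lists.

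The longer ranked lists, with 32752 to 49135 peaks on the main arms, show what lies under the threshold. Of the 38 genes without a thresholded peak, 34 had a ranked peak within 1 kb in at least 1 list (89.5%, against 82.1% of all genes in no thresholded list). A ranked peak in all 4 lists was found at 7: MED14, MED25, TfIIEalpha, TfIIEbeta, TfIIS, Polr2A and Polr2I. That is 18.4% of the 38, against 15.2% of all genes in no thresholded list, so both shares stand near the background. At Polr2A the ranked percentiles were 69.5, 77.6, 77.1 and 38.7 in replicates 1 to 4. MED11, MED18, MED24 and Polr2K had no ranked peak in any list. The 6 genes found in the list of replicate 2 alone had ranked peaks in every replicate, at percentiles of 89.1 to 97.1 in replicate 2, 87.4 to 94.0 in replicate 3, 26.7 to 85.8 in replicate 1 and 26.5 to 92.8 in replicate 4. Replicate 3 therefore ranked these promoters high without listing them, and replicates 1 and 4 did so for some. In replicate 3 the median was 79.3 over all protein-coding genes with a ranked peak. Over the machinery genes with one it was 90.1, near the 91.0 of these 6. Called genes and genes in no list were separated by thresholded lists of the same replicates, so a gap in rank between them is built in. Their ranked percentiles still overlapped in replicates 1 and 3. The lowest called values there were 78.0 (MED31) and 31.9 (TfIIA-S), and the highest in no list 88.2 and 91.3. In replicate 4 they met at 90.2, which was the value of MED6 among the called genes. MED31, TfIIA-S and MED6 had no thresholded peak in the replicate concerned and were called through others. The same overlap was not computed over all genes. Of the 18 called genes, 17 had a ranked peak in replicate 1, and Polr2J had none there.

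**Figure D5:**
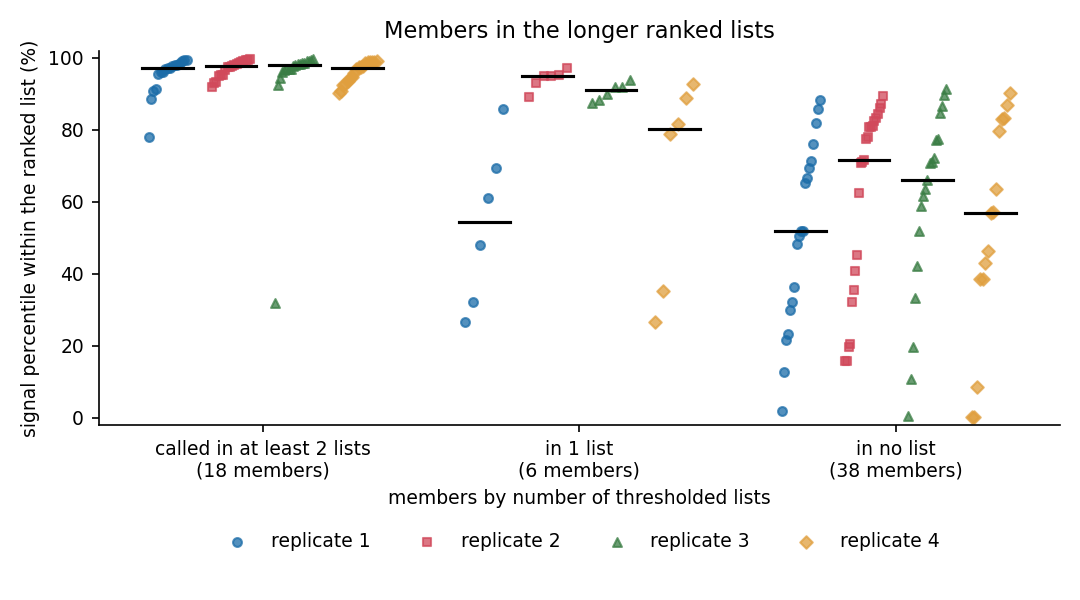
Signal percentile within the longer ranked list of each replicate (vertical axis, %) for machinery genes called in at least 2 thresholded lists, found in 1, or found in none (horizontal axis). Each symbol is 1 gene with a ranked peak within 1 kb of a TSS, and each line the median. The medians of the called genes are 97.1 to 98.0 and those of the genes in no list 51.8 to 71.7. The genes in 1 list stand between or near the called ones depending on the replicate. The groups were formed from thresholded lists of the same replicates, so a gap between them is built in.

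Promoter letters did not separate called from uncalled machinery genes in a uniform way. In the 250 bases before and the 50 bases from the 5′-most TSS, GGTCACACT matched in 25.8% of the 62 genes, against 6.04% of all genes. It matched in 16.7% of the called genes and 28.9% of those in no list. TATCGATA matched in 16.1% (against 9.36%) and CATCNCTA in 14.5% (against 6.41%). Lower than in all genes were TCAGT, an initiator core (32.3%, against 51.5%), GAGAG (21.0%, against 29.7%) and CAGCTG (11.3%, against 17.6%). TATAAA was in 31 of the 62, against 45.8% of all genes, and CGATA, which overlaps TATCGATA, in 56.5%, against 47.3%. TCAGT was found in 2 of the 18 called genes (11.1%), 4 of the 6 in 1 list (66.7%) and 14 of the 38 in no list (36.8%), so its share did not run with the number of lists. Of all genes called in at least 2 lists 46.8% held it. Median GC content of the window was 34.5% for called genes, 37.3% for those in no list and 38.0% for all genes. Base composition and arrangement differ between these groups, and their part in the motif shares was not tested.

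Neighbouring parts of the machinery that the name rule does not reach were counted in the same way, beside the 16.0% of all genes. Of 5 other Mediator genes 1 was called: skd, of the kinase module, at percentiles of 39.2, 81.2, 80.1 and 45.2 in replicates 1 to 4. Of 7 genes of the TATA-binding protein family and the testis TAFs none was called, and none had a peak in any list. Of 10 TFIIH genes 3 were called (30.0%). Ssl1, a core TFIIH subunit, stood at percentiles of 99.5, 99.7, 99.4 and 99.7, higher in each list than any of the 62. The other called TFIIH genes were mrn, in all 4 lists, and Xpd, a helicase gene, in 2. Of 15 pausing and elongation genes 4 were called (26.7%): TH1, Nelf-A and Spt6 in all 4 lists and Nelf-E in 3. TH1, Nelf-A and Nelf-E encode subunits of the negative elongation factor. In replicates 2 and 4 the Nelf-E summit lay nearer to the TSS of a ribosomal protein gene (-13 and -37 bp, against -114 and -90 bp). Neighbours of the other genes in these lists are not given. Of 13 genes of SAGA, a co-activator complex that shares TAFs with TFIID, 3 were called (23.1%), namely the acetyltransferase gene Gcn5 in all 4 lists, and Ada3 and Ada2b in 2.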

How the data were processed

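ChIP-seq with an antibody against GFP was done on sonicated chromatin of 200 to 800 bp from embryos expressing Gug-eGFP, in 4 biological replicates, per the labels. Per the deposited README texts, a thresholded list was made from each replicate's own alignment and further inputs whose role is not stated. No source used here names the aligner or the peak caller.

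The authors' signal value of each peak, in a unit that is not stated, was used only as a rank within its list. The deposited irreproducible discovery rate score was at least 830 in every thresholded list. The deposited -log10 q-value served as a filter in 1 alternative. The other deposited column used was the summit offset. Depth is unknown, so no counting interval is given.

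Summits were set against all TSSs of 13968 protein-coding genes of Ensembl release 115 (BDGP6, the dm6 coordinates), and peaks lie within the lengths of the RefSeq Release 6 sequence from which windows were read. The steps ran in Python 3.11.15 with pandas 2.3.3 and numpy 2.4.6. Placed summits were recovered at all 138 genes tested on simulated data. With 1 group there is no comparison of conditions, and no test was made. The members, gene lists, motifs and settings were chosen with earlier results of these data known. Of the list symbols outside the rule 50 were matched, 4 of them by an older name, 2 were already members, and 2 (rye and Nelf-B) were not matched. By the rule for naming, every member is named, and of the other machinery lists those called in at least 2 replicates, apart from a result that is not reported here. Ribosomal protein, proteasome and translation factor genes are only counted. The backgrounds of head-to-head genes and of genes with 1 TSS were added after the values had been seen.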

Additional observations from a re-analysis of the deposited data

Results flagged for a closer look

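In 24 sets of 4 replicate values (signal percentile and summit distance of the genes in all 4 lists, and list-level shares), 3 held a replicate whose gap to its nearest neighbour, as a share of the range, exceeded the critical value for 4 values (Dixon's test). Such a screen flags about 1 in 20 sets by chance. At MED15 the signal percentile of replicate 1 was 64.4, apart from 85.2 to 88.9 in the others (gap 0.849 of the range). The MED15 summit of replicate 4, at -541 bp, was apart from -565 to -569 bp (gap 0.857). At MED17 the summit of replicate 4, at -152 bp, was apart from -35 to -47 bp (gap 0.897).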

How the results depend on the processing

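Of 120 recomputed values 97 kept within 1.5 times the count, or within the replicate SD of the median percentile, and 23 did not. Requiring all 4 lists left 9 members, 0 Taf, 1 TFIIA to TFIIS and 2 Pol II genes, and 1101 of all genes, and requiring 3 lists left 1 TFIIA to TFIIS gene. With 1 list, 5 Taf genes and 3366 of all genes were called. Peaks given to the nearest TSS only left 9 members (5 Mediator, 1 Taf, 1 TFIIA to TFIIS and 2 Pol II genes). The stronger 50% of each list left 11 members, 5 Mediator, 1 Taf and 1 TFIIA to TFIIS gene, and 1316 of all genes. A TSS window of 200 bp left 1 TFIIA to TFIIS gene and 1317 of all genes, and one of 2 kb called 5 Taf genes, as did the largest series-level set. Leaving out each replicate in turn gave 15 to 18 members, 8 to 9 Mediator, 2 Taf, 1 to 3 TFIIA to TFIIS (1 without replicate 2) and 4 Pol II genes, 1673 to 2150 of all genes and a median percentile of 60.5 to 68.4. Under each of these settings the members' share exceeded that of all genes, from 1.29 times (nearest TSS) to 2.39 times (200 bp window). Where counts moved, the settings by construction admit fewer or more peaks, lists or TSSs. No paired analysis was possible because the study used here has 1 group. Depth is unknown, so a gene without a peak was not detected at these thresholds.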

Other observations

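Other gene sets, chosen by symbol alone, were counted in the same lists. The proteasome set includes variant genes, with symbols ending in R or T or in these and a digit. None of these variants had a peak in any list, so they lower its share. The shares called in at least 2 lists were 41.9% for 93 cytosolic ribosomal protein genes, 12.5% for 48 proteasome subunit genes and 19.2% for 52 translation factor genes. The machinery genes stood at 29.0% and all genes at 16.0%. In all 4 lists the shares were 15.1%, 0% and 13.5% for these 3 sets, beside 14.5% for the machinery genes and 7.88% for all genes. The ribosomal protein share of each list was 17.2%, 55.9%, 29.0% and 37.6% in replicates 1 to 4, a wider range than the 21.0% to 38.7% of the machinery genes.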
